A study of Mus musculus with 8 samples.

Results

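SMAD4 occupancy was described at the genes of 8 chondrogenic regulators, Sox9, Sox5, Sox6, Runx1, Runx2, Runx3, Nkx3-2 and Acan, in mouse limb buds of 2 stages. Members were all peaks of the E9.5 and E10.5 SMAD4 peak lists whose centre lay within 100 kb of the 5′ end of one of these genes, or within 1 Mb for Sox9. This distance gave 5 of the 2073 peaks at E9.5 and 14 of the 6185 peaks at E10.5, 19 of 8258 in all, and the 8 genes were 8 of 22208 protein-coding genes. Within 100 kb alone there were 2 peaks at E9.5 and 8 at E10.5. All coordinates are those of mouse genome build mm9, with gene models of GENCODE vM1.

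The embryos carried the Smad4Flag allele, in which the endogenous Smad4 gene encodes a SMAD4 protein with a triple FLAG tag. They were homozygous for it on the NMRI strain background, in every group. Chromatin was precipitated with the M2 anti-FLAG antibody, or kept as input DNA without antibody. The 8 samples fell into 4 groups of 2, a SMAD4 ChIP and an input group at each stage. The E9.5 samples were forelimb buds with attached trunk, staged as E9.75 in the protocol and pooled from about 80 embryos per replicate. The E10.5 samples were fore- and hindlimb buds by their tissue label and the protocol, from about 100 embryos per replicate, although their source label names the forelimb bud alone. Stage and dissected tissue, with trunk attached at E9.5 and, by the protocol, hindlimb buds added at E10.5, therefore changed together and cannot be told apart in any comparison of the lists. Each deposited list already combined both replicates of its stage, so no replicate error and no read depth stood behind a single peak, and no test was made. Each peak carries a score, whose unit the lists do not name, and was ranked by it within its own list, where rank 1 is the highest score. Score minimums of 50 and 100 were applied to both lists alike, and whether a score means the same at both stages was not tested. A gene without a listed peak was not shown to be unbound. Sequence reads do not show which cells of the bud carried SMAD4, and the cell types were not checked, because the lists hold no expression values.

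SMAD4 is the common partner of the receptor-activated SMADs and enters the nucleus with them after BMP or TGFβ receptors are activated. SMAD proteins contact short DNA boxes and usually act together with other transcription factors. In the limb bud, BMP signals are needed for mesenchymal cells to condense and form cartilage. SOX9 is the transcription factor required for that step, SOX5 and SOX6 assist it at cartilage genes, the RUNX factors act in cartilage maturation and bone formation, NKX3-2 acts in early chondrogenesis, and aggrecan, the product of Acan, is a proteoglycan of the cartilage matrix.

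The sequences on which the later comparisons turn are shown first, each as 30 bases of mm9 with the searched letters in capitals. The first set is the SMAD box CAGAC nearest the centre of the best-ranked peak of a gene at a stage, where 1 lay in the 300 bp centred on the peak, and shows how the same box was embedded at different genes. A peak centre is here the midpoint of the listed interval, which need not be where the signal was highest.
Sox9, E9.5, chr11:113300466-113300495, minus strand: agagatgctctgCAGACaagctcctaagct
Runx1, E9.5, chr16:92904399-92904428, plus strand: tccccatgaagcCAGACaagaccagcaagc
Runx3, E10.5, chr4:134655550-134655579, minus strand: atcttataccagCAGACtgaggtcgaatga
Acan, E10.5, chr7:86283399-86283428, plus strand: tgtagctctccaCAGACatggcagagctta
The best-ranked E10.5 peaks of Sox9, Sox6, Runx1 and Runx2 held no CAGAC in that window, but each held it elsewhere in the peak.

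The second set shows sites at or near the promoters, chosen after the matches had been seen. The palindrome GTCTAGAC, in which the short SMAD element is followed by its own reverse complement, lay 0.414 kb upstream of the Sox9 5′ end and inside the E10.5 Sox9 promoter peak. The GC-rich SMAD sequence GGCGCC lay in the peaks over the proximal starts of Runx2 and Runx1, and CAGAC stood 24 bases upstream of the Sox6 start that carried an E10.5 peak.
Sox9, chr11:112643110-112643139, plus strand: ggagggtcctaGTCTAGACacgctcgcgtg
Runx2, chr17:44873080-44873109, plus strand: tgcccagctcgcGGCGCCgtcgcttgcccg
Runx1, chr16:92698631-92698660, plus strand: gttcgtccccgcGGCGCCgagggcattttc
Sox6, chr7:123174568-123174597, minus strand: ggggggacaggaCAGACacctggcaaggcc

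Across the 8 genes, peaks were counted first by gene. At E9.5, 2 of 8 genes had a peak within 100 kb, Sox9 and Runx1, beside 20.5% of all protein-coding genes. At E10.5, 6 of 8 had one, Sox9, Sox6, Runx1, Runx2, Runx3 and Acan, beside 52.9% of all genes. Sox9 and Runx1 had a peak at both stages (2 of 8 genes, beside 14.6% of all). The Runx1 peak at E10.5 was low in its list. It was lost with a score minimum of 50 or with the E10.5 list shortened to the length of the E9.5 list. The Runx1 peak at E9.5 was lost within 50 kb. Each of these changes left Sox9 as 1 of 8. All shares of coding genes in this paragraph are for 100 kb and the full lists, and were not recounted for other settings. Sox6, Runx2, Runx3 and Acan had one only in the E10.5 list (4 of 8, beside 38.3%). Where only peaks nearest to the member among coding genes counted, only Runx3 remained of these. Acan also lost its peak with the shortened E10.5 list. None of the 8 had one only in the E9.5 list, a class that held 5.86% of all genes. Sox5 and Nkx3-2 had none at either stage (2 of 8, beside 41.2%). The mean number of peaks within 100 kb was 0.25 per gene for the 8 genes and 0.242 for all genes at E9.5, and 1.0 against 1.01 at E10.5. The number of peaks within 100 kb of the 5′ ends of the 8 genes was thus close to that of an average coding gene at either stage. Over gene bodies with 100 kb on either side, the means were 0.375 against 0.290 at E9.5 and 1.875 against 1.17 at E10.5.

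**Figure D1:**
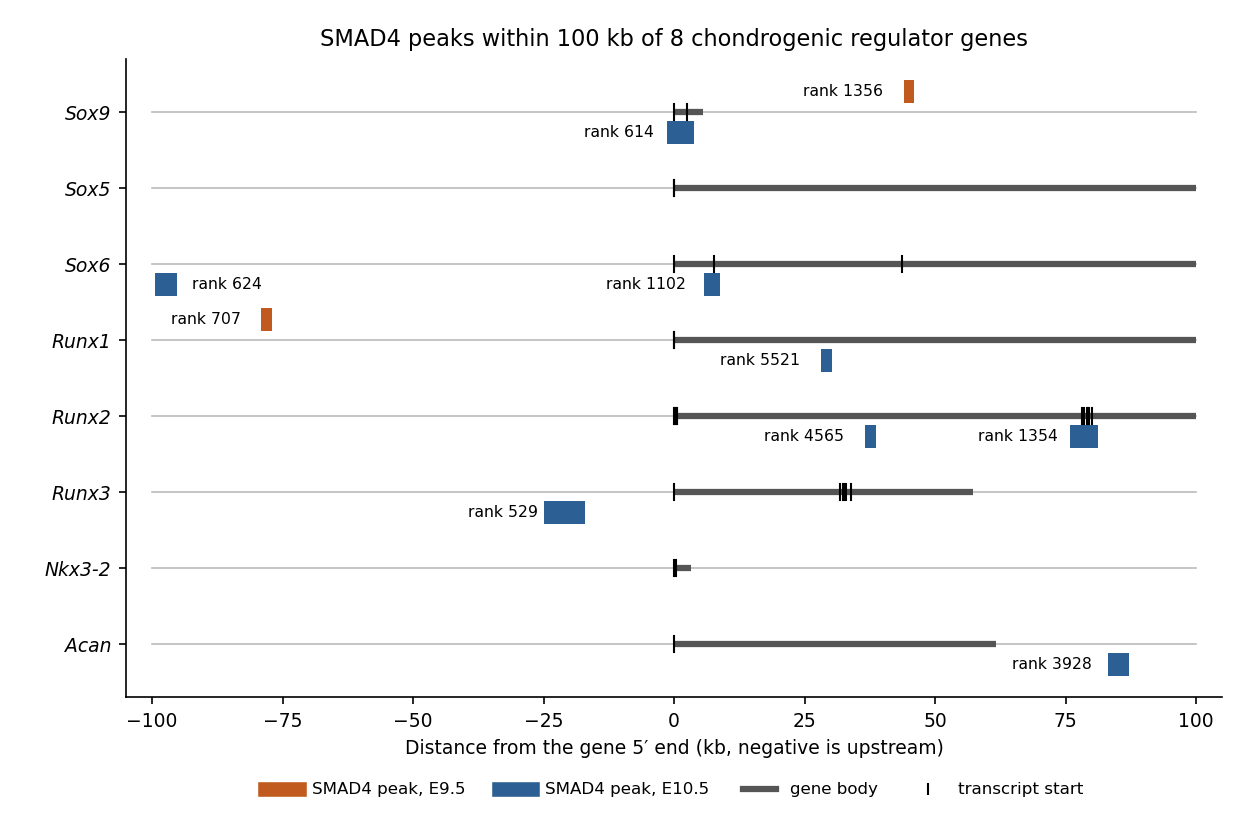
Peaks within 100 kb of the 5′ end of each gene (x axis, distance in kb along the direction of transcription), with E9.5 peaks above and E10.5 peaks below each gene line and the rank of each peak in its list. Bars are drawn to the width of the peak, or to 2 kb where it was narrower. The 2 E9.5 peaks stood 45.0 kb from Sox9 and 78.0 kb from Runx1, whereas E10.5 peaks covered transcript starts of Sox9, Sox6 and Runx2.

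None of the 19 peaks was shared between stages. Over the whole lists, 387 peaks of each stage overlapped 1 of the other by at least 1 bp, which was 18.7% of the E9.5 list and 6.26% of the E10.5 list. The closest E9.5 and E10.5 member peaks were 31.3 kb apart, in the Sox9 interval. The median gap from a member peak to the nearest peak of the other stage was 106 kb for E9.5 peaks and 149 kb for E10.5 peaks, and the largest was 641 kb, at Sox6.

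None of the 19 peaks reached a score of 100, a value that 208 peaks of the E9.5 list and 522 of the E10.5 list reached. The E9.5 peaks ranked between 394 and 1945 of 2073, with 3 of 5 above the middle of the list, 2 in its best 25% and 0 in its best 10%. The E10.5 peaks ranked between 529 and 6138 of 6185, with 7 of 14 above the middle of the list, 6 in its best 25% and 2 in its best 10%, those of Runx3 and the Sox9 promoter. The 8 E10.5 peaks within 100 kb of a gene had a median rank at 19.9% of the list, and the median over all 14 was 46.9%.

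**Figure D2:**
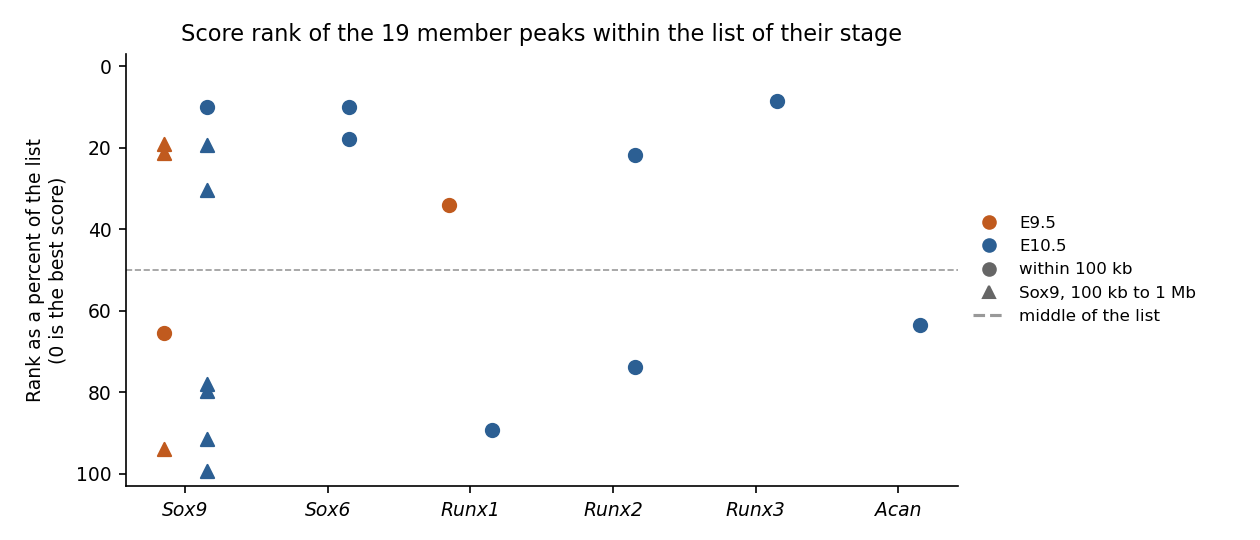
Rank of each member peak as a percent of its list (y axis, 0 is the best score) by gene (x axis), with circles for peaks within 100 kb and triangles for Sox9 peaks farther away. The E10.5 peaks of Runx3, Sox9 and Sox6 lay nearest the top, at 8.55%, 9.93% and 10.1% of the list, and the best E9.5 peak was at 19.0%.

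Sox9, the gene required for chondrocyte commitment (chr11:112643538-112649074, plus strand), had 1 peak within 100 kb at each stage, in different places. The E10.5 peak, chr11:112642189-112647311, was 5123 bp wide, scored 95.69 and ranked 614. It covered both annotated Sox9 transcript starts, and its centre was 1.21 kb downstream of the 5′ end, in an intron. The E9.5 peak, chr11:112688254-112688823, was 570 bp wide, scored 52.69 and ranked 1356. It lay 45.0 kb downstream of the 5′ end, in an intron of the transcript 4933434M16Rik, and Sox9 was its nearest coding gene. The 2 peaks were separated by 40.9 kb, so at E10.5 the promoter was listed and the downstream region was not, and at E9.5 the reverse.

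Sox9 was the only 1 of the 8 genes whose 5′ end was covered by a peak at E10.5 (1 of 8, beside 11.3% of all genes), and no 5′ end was covered at E9.5 (0 of 8, beside 2.11%). The Sox9 promoter peak held the palindrome GTCTAGAC once, in the sequence shown above, 1626 bp from the peak centre. Of all E10.5 peaks, 3.62% held these letters anywhere in the peak. The Sox9 promoter peak was 5123 bp wide, against a list median of 2552 bp, and the share was not recounted for peaks of such width. In its central 300 bp, 150 bp on either side of the centre, this peak held no CAGAC and no GTCTAGAC, but it held the SOX sequence AACAAT, which was found in 6.29% of E10.5 peaks.

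Sox9 is known to be controlled from a long stretch of DNA with few other genes, and peaks were therefore followed to 1 Mb. Within that distance the annotation had the 5′ ends of 8 other coding genes, against a median of 29 for all coding genes. There were 4 peaks at E9.5 and 7 at E10.5. As many or more at E9.5 were found around 21.9% of all coding genes, and at E10.5 around 53%. Among the 2127 genes with as few coding neighbours as Sox9 or fewer, the shares were 8.13% and 7.43%, and their median counts were 1 and 2. Within 500 kb, Sox9 had 1 E9.5 and 3 E10.5 peaks. With the E10.5 list shortened to the length of the E9.5 list, 3 of its 7 E10.5 peaks within 1 Mb remained. The shares were not recounted for these settings.

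The 4 E9.5 peaks of the Sox9 interval were spread over both sides of the gene. The farthest upstream, chr11:112100366-112101227, lay 543 kb from Sox9, outside any gene and beyond Gm11678, and ranked 440. The peak at 657 kb downstream, chr11:113299549-113301359, in an intron of the zinc transporter gene Slc39a11, ranked 394 and was the best E9.5 peak of all members. The peak at 936 kb, chr11:113578288-113581502, ranked 1945 and lay 8.56 kb upstream of Cpsf4l, with 6 coding genes between it and Sox9. With the peak at 45.0 kb these were the only E9.5 peaks in the interval, and those at a distance of over 500 kb made up 3 of the 4.

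Of the 7 E10.5 peaks, 1 lay upstream and 1 on the promoter. The upstream peak, chr11:112310636-112312057, was 332 kb from Sox9 and ranked 5659. The peak at 398 kb downstream, chr11:113037719-113044703, was 6985 bp wide, in an intron of the transcript 2610035D17Rik, with Sox9 as the nearest coding gene, and ranked 4928. The peaks at 523 kb (chr11:113165239-113167514, rank 4822) and 771 kb (chr11:113411496-113417710, rank 6138) lay in introns of Slc39a11. These 4 distal peaks were all in the last 25% of the list. The peak at 902 kb (chr11:113544142-113546983, rank 1872) was centred 0.093 kb from the start of D11Wsu99e, and the peak at 985 kb (chr11:113627345-113629482, rank 1191) lay 15.2 kb from Cdc42ep4. The better-ranked distal E10.5 peaks were thus those at the gene-rich far end of the interval. The next E10.5 peak, just outside the limit, lay 1093 kb downstream (chr11:113732608-113739770, rank 4650).

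**Figure D3:**
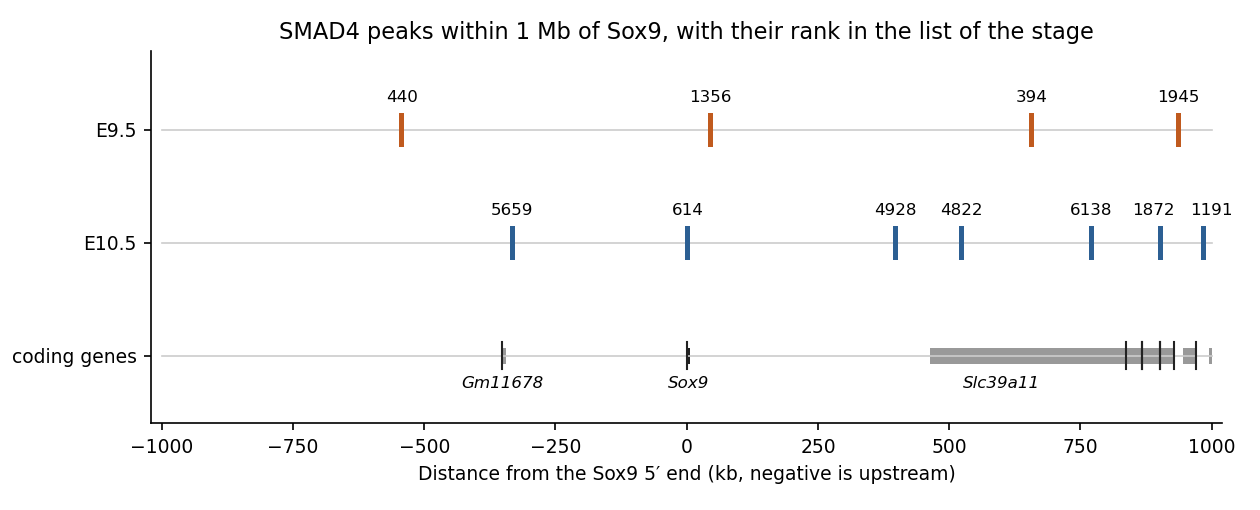
Peaks within 1 Mb of the Sox9 5′ end (x axis, distance in kb), on 1 line for each stage with ranks above the peaks, and coding genes below, where ticks mark 5′ ends. Peaks narrower than 10 kb are drawn at 10 kb. Between the 5′ ends of Gm11678 at -351 kb and Sstr2 at 837 kb no other coding 5′ end than that of Sox9 was annotated, and 2 of 4 peaks at E9.5 and 5 of 7 at E10.5 fell in this stretch.

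Sox5 and Sox6 encode closely related SOX proteins that bind next to SOX9 at cartilage enhancers, and both are very long genes with starts far apart. Sox6 (chr7:122614858-123182258, minus strand, 567 kb) had 2 peaks within 100 kb at E10.5 and none at E9.5. The first, chr7:123173382-123176528, scored 81.28, ranked 1102 and covered an internal Sox6 start at position 123174561, 7.7 kb downstream of the gene 5′ end. The overlapping gene 1110006G14Rik had its 5′ end 0.538 kb from the peak centre, so the peak covered the starts of both genes. Around this Sox6 start, from 250 bases before to 50 after it, CAGAC occurred 2 times, and it occurred in 48.4% of such windows at the 5′ ends of all coding genes.

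The second Sox6 peak, chr7:123277543-123281622, scored 95.34 and ranked 624. It lay 97.3 kb upstream, just inside the limit of 100 kb, in an intron of Plekha7, 42.8 kb from the start of 1110004F10Rik. It held the RUNX sequence TGTGGT 2 times in its central 300 bp, and no CAGAC there. At E9.5 the nearest peak to Sox6 was 636 kb upstream.

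Sox5 (chr6:143776945-144730497, minus strand, 954 kb) had no peak within 100 kb of its 5′ end at either stage. Inside the gene, farther from the 5′ end, the E10.5 list had 3 intronic peaks. They lay 185 kb (chr6:144544064-144547016, rank 4148), 246 kb (chr6:144483569-144484443, rank 3765) and 716 kb (chr6:144013818-144014746, rank 4743) downstream, and none covered 1 of the 12 annotated Sox5 starts. All 3 ranked below the middle of the list. At E9.5 no peak lay in the gene, and the nearest was 1069 kb upstream, near Bhlhe41. Of the related genes Sox5 and Sox6, only Sox6 thus had a listed peak on an annotated start. That peak covered 1 of the 5 Sox6 starts, not the 5′ end, and also the start of 1110006G14Rik. The 5′ end used for Sox5 was that of a retained-intron transcript, and the nearest start of a protein-coding Sox5 transcript lay 572 kb downstream of it.

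The 3 Runx genes encode DNA-binding factors that work with the partner CBFβ. Runx2 is required for bone formation and chondrocyte maturation, Runx3 acts with it in maturation, and Runx1 is expressed in early cartilage and best known in blood. Each is transcribed from a distal promoter at the gene 5′ end and from a proximal promoter inside the gene. At E10.5, 1 of 3 annotated proximal starts of Runx1 and 6 of 6 of Runx2 were covered, no distal start was covered, and Runx3 had its peak upstream of both.

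For Runx2 (chr17:44632936-44951746, minus strand), the E10.5 peak chr17:44870569-44875906 covered 6 of its 11 annotated starts, those of the proximal promoter 78.5 kb downstream of the 5′ end. It scored 76.24, ranked 1354, lay on annotated UTR sequence and was 5338 bp wide. The GGCGCC site shown above lay in it, and its central 300 bp had the highest CpG ratio among the members, 1.06 observed to expected against a median of 0.329 for the list. A second E10.5 peak, chr17:44913448-44914869, ranked 4565 and lay 37.6 kb downstream of the Runx2 5′ end. It was centred 0.057 kb from the start of Supt3h, a gene that begins inside Runx2, and on Supt3h UTR sequence. At E9.5 the nearest peak, outside the limit, was chr17:44745751-44747514 in an intron 205 kb downstream, with rank 2034.

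For Runx1 (chr16:92601712-92826311, minus strand), the stages again differed in position. The E9.5 peak, chr16:92903953-92904758, scored 62.18, ranked 707 and lay 78.0 kb upstream of the gene, outside any gene, with Runx1 as the nearest coding gene. It held the CAGAC site shown above and 1 AACAAT. The E10.5 peak within 100 kb, chr16:92796349-92797861, lay in an intron 29.2 kb downstream and ranked 5521. Just outside the limit, 128 kb downstream, the E10.5 peak chr16:92696765-92700472 covered the proximal start at position 92697573, but not the other proximal starts, at positions 92695895 and 92696255, and ranked 2635. A further intronic E10.5 peak, chr16:92620444-92624726, lay 204 kb downstream and ranked 1769. The better-ranked Runx1 peaks at E10.5 were therefore those that the distance from the distal 5′ end left out.

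For Runx3 (chr4:134676567-134733905, plus strand), a single peak was listed within 100 kb, at E10.5. This peak, chr4:134651582-134659454, scored 99.5 and ranked 529, the best rank of the E10.5 members, and at 7873 bp it was also the widest. It lay 21.0 kb upstream, outside any gene, with Runx3 as the nearest coding gene. Its central 300 bp held the CAGAC shown above and 1 TGTGGT. The nearest E9.5 peak lay 296 kb upstream, near Tmem57. None of the 6 annotated Runx3 starts was covered at either stage.

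**Figure D4:**
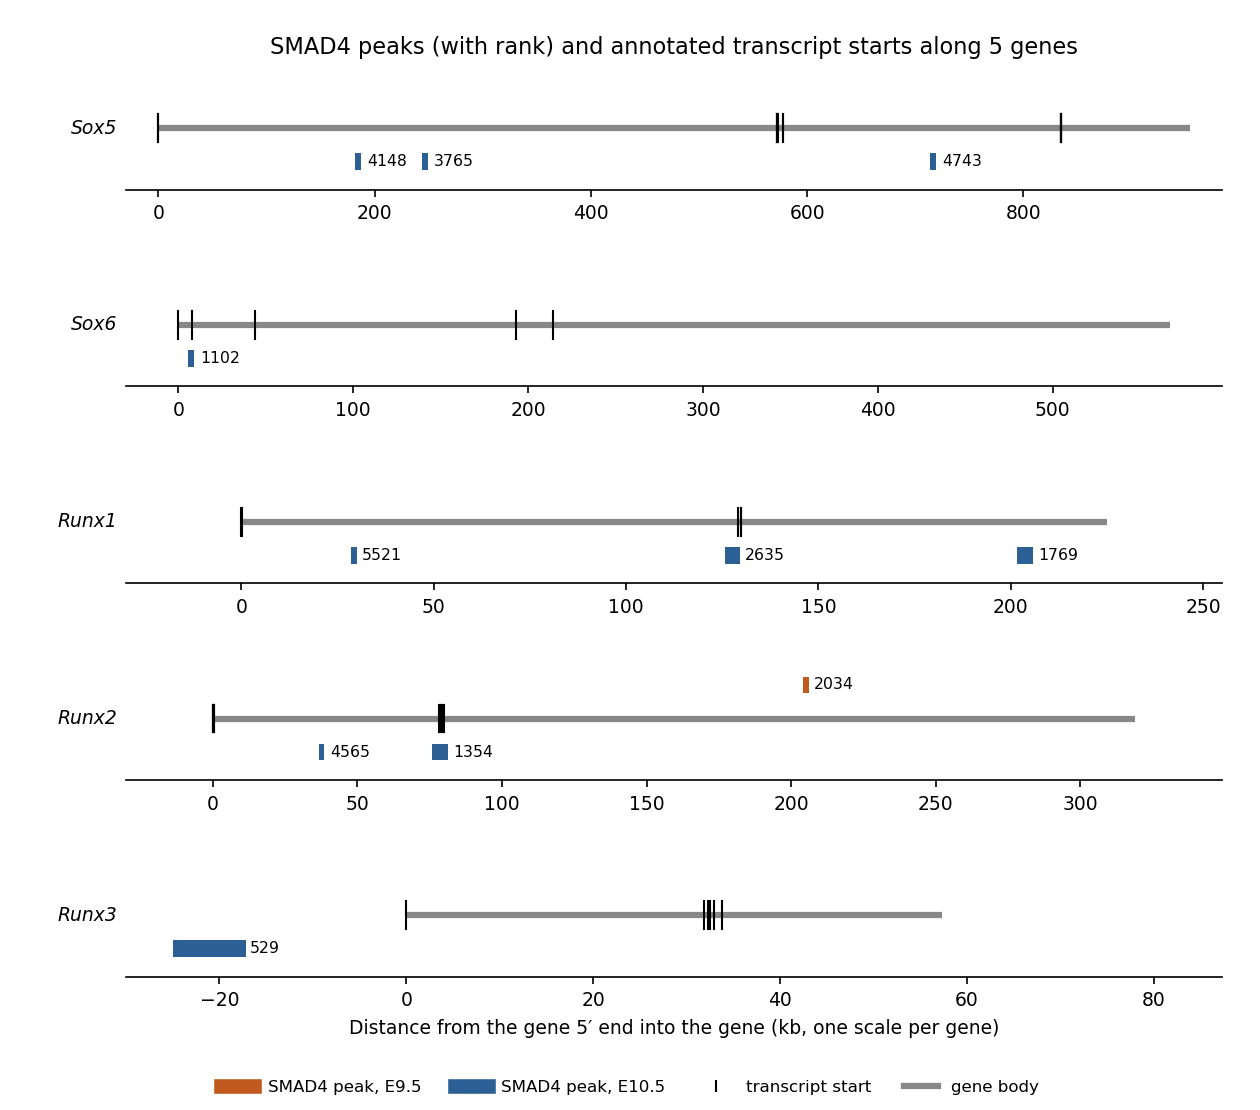
Peaks (E9.5 above, E10.5 below, with ranks) and annotated transcript starts (ticks) along Sox5, Sox6, Runx1, Runx2 and Runx3, with the distance from the gene 5′ end in kb on a scale of its own for each gene. Peaks outside the genes by more than 30 kb are not drawn, and narrow peaks are widened to 0.6% of the gene length. E10.5 peaks stood on 1 of 4 internal starts of Sox6, 1 of 3 proximal starts of Runx1 and 6 of 6 proximal starts of Runx2, and those in Sox5 stood on none.

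Counting every annotated start, the E10.5 list covered at least 1 start of 4 of the 8 genes, Sox9, Sox6, Runx1 and Runx2, beside 13.5% of all coding genes. At E9.5 it was 0 of 8, beside 2.48%. Genes with several starts far apart have more chances to be covered, and among the 2102 genes whose starts spanned 50 kb or more the shares were 25.1% at E10.5 and 5.71% at E9.5. Of the 4 members in that class, Sox5, Sox6, Runx1 and Runx2, 3 were covered at E10.5 and 0 at E9.5.

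The distal promoters of the 3 Runx genes, which carried no peak and belong to 1 gene family, shared a sequence. Each had 2 copies of ACCACA, the RUNX sequence TGTGGT read on the other strand, whose first bases were 8 bases apart. In all 3 the letters between the copies were the same.
Runx1, chr16:92826270-92826299, minus strand: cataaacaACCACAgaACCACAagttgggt
Runx2, chr17:44951532-44951561, minus strand: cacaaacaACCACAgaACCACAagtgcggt
Runx3, chr4:134676418-134676447, plus strand: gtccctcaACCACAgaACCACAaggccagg
The pair began 20 bases downstream of the Runx1 5′ end, 23 bases downstream of a distal Runx2 start at position 44951576 and 141 bases upstream of the Runx3 5′ end. Such a pair at this spacing was found in 3 of 22208 windows at coding 5′ ends, 0.0135%, among them those of Runx1 and Runx3. The pair and its spacing were chosen after the sequences of these promoters had been seen, so the share is no independent measure of rarity. The proximal starts had other letters. Of the windows at proximal starts, 2 of 3 at Runx1, 2 of 6 at Runx2 and 1 of 5 at Runx3, where no start was covered, held GGCGCC, found in 14.4% of all coding 5′ windows, and none of these held TGTGGT. At the proximal Runx3 start at position 134708411, where no peak was listed, the window held GTCTAGAC, found in 0.176%.

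Nkx3-2 (chr5:42152404-42155735, minus strand), the homeobox gene, had no peak within 1 Mb at either stage. The nearest were 1470 kb upstream and overlapped each other, chr5:43623423-43627088 at E9.5 with rank 85 and chr5:43623415-43627072 at E10.5 with rank 73, both at the start of Cpeb2. Only 3 other coding 5′ ends lay within 1 Mb of Nkx3-2.

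Acan (chr7:86198369-86259985, plus strand), the matrix gene among the members, had 1 E10.5 peak within 100 kb. This peak, chr7:86281459-86285437, scored 55.36, ranked 3928 and lay 85.1 kb downstream of the 5′ end, beyond the end of Acan, in an intron of Mfge8. Its nearest coding start was that of Hapln3, the gene of a link protein of the proteoglycan matrix, at 7.55 kb. It held CAGAC 3 times in its central 300 bp, the most of any E10.5 member peak. The nearest E9.5 peak lay 235 kb upstream, near Det1.

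Distance alone does not tie a peak to a gene. Of the 8 E10.5 peaks within 100 kb, 3 had the member as the nearest coding gene by gene 5′ ends, those of Sox9, Runx1 (29.2 kb) and Runx3, and both E9.5 peaks did. The others stood nearer the gene 5′ ends of 1110006G14Rik, 1110004F10Rik, Supt3h or Hapln3. Counted by any annotated start, the Sox6 peak at 7.3 kb and the Runx2 peak at 78.5 kb stood nearest their own genes, at 0.394 and 0.112 kb. By the same count, the Runx3 peak stood nearest a start of Gm16225, at 20.8 kb, and not Runx3, at 21.0 kb. The E9.5 Sox9 peak stood nearest a start of 4933434M16Rik, at 2.04 kb. By annotation at the peak centre, the 14 E10.5 peaks were 8 intronic, 4 intergenic and 2 on UTR, and the 5 E9.5 peaks were 2 intronic and 3 intergenic.

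Sequences around all 19 peak centres were compared with the full lists, in the central 300 bp and on both strands. By median width, this window took in less of the E10.5 member peaks (3563 bp) than of those at E9.5 (862 bp). The counts of the stages are therefore not directly comparable, and a window off the highest signal could miss a site. CAGAC occurred in 5 of 5 E9.5 member peaks, beside 60.6% of the E9.5 list, and in 7 of 14 E10.5 member peaks, beside 53.2% of the E10.5 list. The longer CAGACC, which contains CAGAC, occurred in 3 of 5 at E9.5 (list 21.0%) and 0 of 14 at E10.5 (list 19.7%). The 3 were all Sox9 peaks, at -543, 45.0 and 936 kb, and 2 of these sites are shown to mark them.
Sox9, -543 kb, chr11:112100794-112100823, plus strand: ttattgaaacctCAGACCccgtgcactggt
Sox9, 45.0 kb, chr11:112688433-112688462, plus strand: ttcagtgcctctCAGACCtcctgacaggac
The peak at -543 kb held CAGAC 5 times in its 300 bp, a count that 2.17% of E9.5 peaks reached, and the list median was 1.

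The other letters gave small counts. GGCGCC was found in 1 of 5 E9.5 member peaks (list 12.6%) and 1 of 14 at E10.5 (list 13.1%). TGTGGT was found in 0 of 5 (list 17.4%) and in 4 of 14 (list 17.3%), namely both Sox6 peaks, the Runx3 peak and the Sox9 peak at 771 kb. AACAAT was found in 2 of 5 (list 7.53%), the Runx1 peak and the Sox9 peak at 45.0 kb, and in 1 of 14 (list 6.29%), the Sox9 promoter peak. GTCTAGAC (list 1.21% and 0.42%), the PKNOX1 sequence TGACTGAC (list 1.11% and 1.41%) and the bipartite BMP responsive element (list 0.338% and 0.372%) were found in none of the 19 windows. A match is a string of letters and was not tested as a binding site.

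**Figure D5:**
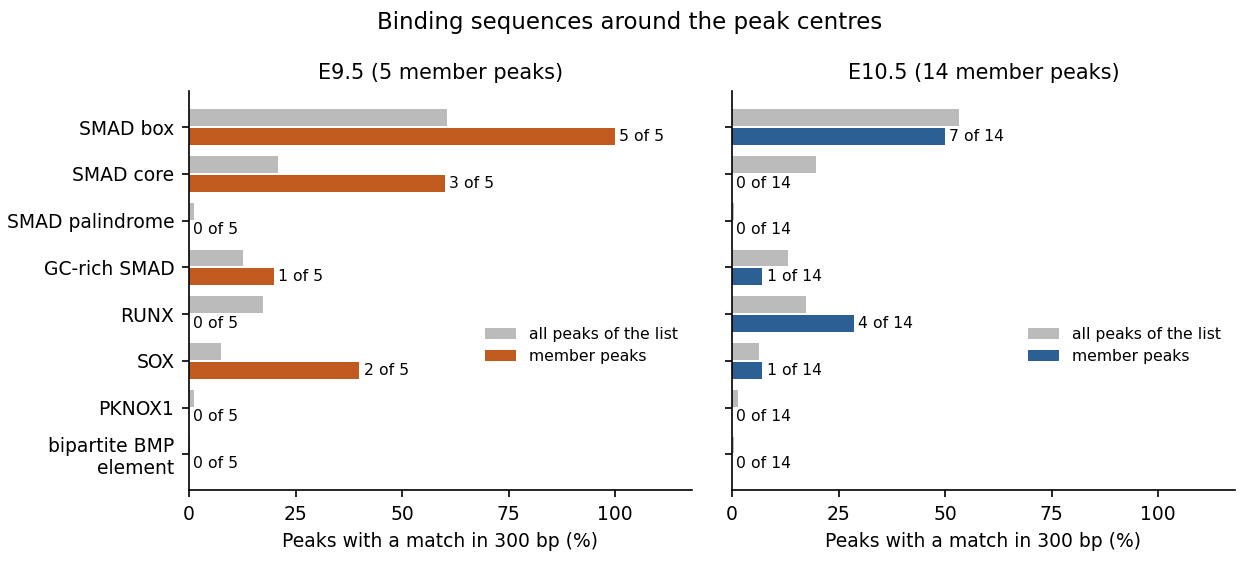
Share of peaks with a match in the 300 bp around the peak centre (x axis, percent) for each searched sequence (y axis), with member peaks in color and the whole list in grey. SMAD box is CAGAC, SMAD core CAGACC, SMAD palindrome GTCTAGAC, GC-rich SMAD GGCGCC, RUNX TGTGGT, SOX AACAAT and PKNOX1 TGACTGAC. CAGAC was found in 5 of 5 E9.5 and 7 of 14 E10.5 member peaks.

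The median GC content of the central 300 bp was 52.3% for the E9.5 member peaks (list 53.0%) and 53.7% for those of E10.5 (list 55.0%). It ranged from 47.3% to 53.3% at E9.5 and from 39.0% to 73.7% at E10.5. The E10.5 member peaks were wider, with a median of 3563 bp (list 2552 bp), than those of E9.5, with a median of 862 bp (list 1244 bp), so wider peaks offered more room for any sequence. Over whole peaks, CAGAC was found in all 19, beside 94.0% of the E9.5 list and 98.2% of the E10.5 list.

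Other genes of cartilage formation were counted as a list of 44 symbols, of which 41 were annotated. At E9.5, 14 of the 41 (34.1%) had a peak within 100 kb and at E10.5 29 of 41 (70.7%), beside the 20.5% and 52.9% of all coding genes given above. These counts were not repeated for 50 kb or the shortened E10.5 list. Nor were they limited to peaks nearest to the gene among coding genes, so a counted peak may stand nearer another gene. The Matrix genes had 6 and 11 of 17, the partners and other transcription factors 4 and 12 of 15, and the signals and receptors 4 and 6 of 9. At E10.5 a peak covered the 5′ end of 7 of the 41 genes, beside 11.3% of all coding genes. Among these, Trps1, a zinc finger repressor of chondrocyte maturation, had the best rank, 238 (chr15:50719954-50722385). Cbfb, which encodes the partner CBFβ of the RUNX factors, had rank 1555 (chr8:107693994-107695917). The others were Gdf6 (a BMP family ligand, rank 1051), Barx2 (rank 1488), Ihh (a hedgehog ligand of chondrocytes, rank 1587), and the matrix genes Col9a2 (rank 1643) and Matn3 (rank 1693). At E9.5 the 5′ ends of Nog, the gene of a BMP antagonist (rank 1174), and Ctgf, a secreted matricellular factor (rank 482), were covered, 2 of the 41 genes beside 2.11% of all. Of this list, 4 of 41 genes had a peak that overlapped between the stages, beside 5.5% of all coding genes and 0 of the 8 regulators. By the distance of the E9.5 peak from the 5′ end and the ranks at E9.5 and E10.5, these were Mef2c (14.2 kb, ranks 1583 and 3902), Nog (1.58 kb, ranks 1174 and 3603), Col11a2 (81.3 kb, ranks 620 and 327) and Fgfr3 (98.8 kb, ranks 532 and 578). The last of these lay just inside the limit of 100 kb.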

How the data were processed

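SMAD4 ChIP and input DNA were sequenced from limb buds at 2 stages, with 2 replicates each. According to the study's methods and processing notes, reads were trimmed, uniquely aligned to mm9 with Bowtie 1.1.0 and called against input with MACS 1.4 at a permissive threshold in each replicate, and replicates were combined with MSPC. The deposited lists give a score per peak as made by the authors. By the study's methods a combined peak took the smallest MACS p-value among the replicate calls behind it. The lists do not say whether, or on which scale, the score is that value, so peaks were ranked within each list, and score minimums served as alternatives. Depth is unknown, as the lists hold no read counts, and peaks have no replicate error. Wider calling or greater depth at 1 stage would change the length of its list.

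From the lists, distances were taken from peak centres to GENCODE vM1 gene 5′ ends (Python 3.11.15, pandas 2.3.3, NumPy 2.4.6, Matplotlib 3.10.9). Overlap meant at least 1 bp. Letters were searched in mm9 on both strands, in 300 bp around the centre. The centre was the midpoint of the listed interval, whereas the paper centred its own motif search on peak summits. The functions were tested on simulated intervals and sequences. Every member and every peak of the rule was named. Of the cartilage list, genes with a covered 5′ end or a shared peak were named. The members and lists were chosen with earlier results of these data known. Alternatives were other distances, reference points, score minimums, overlaps and windows, and an E10.5 list of equal length.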

Additional observations from a re-analysis of the deposited data

How the results depend on the processing

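Of 49 alternative values for 9 counts, 32 stayed within 1.5 times the reported count and 17 did not, and the cause of these was not tested beyond how each alternative is built. With 50 kb in place of 100 kb, genes with an E9.5 peak fell from 2 to 1, E9.5 peaks from 2 to 1 and E10.5 peaks from 8 to 5. Where only peaks nearest to the member among coding genes counted, 3 genes in place of 6 had an E10.5 peak, with 3 peaks in place of 8. Over the gene bodies with 100 kb on either side, E10.5 peaks rose from 8 to 15. With the E10.5 list shortened by score to the 2073 peaks of the E9.5 list, 5 E10.5 peaks near 4 of the 8 genes remained, and 3 of 7 in the Sox9 interval. Within 500 kb in place of 1 Mb, Sox9 had 1 E9.5 and 3 E10.5 peaks. With a score of 100 or more, each of these counts became 0. CAGAC was found in 14 of 14 E10.5 peaks in place of 7 when whole peaks were searched. Of the 6 alternatives for the count of 0 shared peaks, only edges within 1 kb was looser than the 1 bp overlap, and it also gave 0. The smallest gap between a member peak and a peak of the other stage was 31.3 kb, so this setting could not raise the count either. The other 5 were as strict as the 1 bp overlap or stricter and could not raise it. All 6 are among the 32 values that stayed. No paired analysis was possible because the deposited lists combine the replicates. Depth is unknown, and its part in the scores and in the length of the lists was not tested.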

Other observations

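Beyond 100 kb, the regulators differed widely in how many peaks surrounded them. Within 1 Mb of the 5′ end at E10.5, Runx3 had 18 peaks, Acan 12, Sox5 10, Runx2 9, Runx1 8, Sox9 7, Sox6 6 and Nkx3-2 0, against a median of 7 for all coding genes. At E9.5 Sox9 had 4, Runx1, Runx2, Runx3, Acan and Sox6 had 2 each, and Sox5 and Nkx3-2 had 0, against a median of 2. The number of coding 5′ ends in the same distance was 46 for Runx3 and 26 for Acan, but 8 for Sox9, Sox5 and Sox6 and 3 for Nkx3-2. Their part in the counts was not tested.

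The E10.5 peak next farther from Sox6, chr7:123450448-123452643, lay 269 kb upstream in an intron of Plekha7 and ranked 745. It was centred 0.345 kb from the start of Plekha7. The Sox5 peak 246 kb downstream held TGTGGT 8 times in its 300 bp, in near-identical repeated surroundings, of which 2 copies are shown, from chr6:144483931-144483960 and chr6:144484054-144484083, both on the minus strand.
Sox5, first copy: gtcactgcactgTGTGGTcactgcactggg
Sox5, second copy: ttgactgcactgTGTGGTcactgcactggg
Counted by whole gene with 100 kb on either side, Sox5, Sox6, Runx1 and Runx2 each had 3 peaks at E10.5, Sox9, Runx3 and Acan 1, and Nkx3-2 0, against a mean of 1.17 and a median of 1 for all coding genes. The part of gene length in these counts was not tested.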
